A study of Mus musculus with 4 samples.

Results

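Cycling Gfra1+ spermatogonia were taken from sorted undifferentiated spermatogonia of the mouse testis (A_undiff) as the cells that held transcripts of the receptor gene Gfra1 together with a high summed level of 6 mitotic genes. A cell was a member if the natural log of 1 plus 100000 times its share of unique molecular identifiers (UMIs, each standing for 1 captured transcript) from Gfra1 was above 2, and if Top2a, Mki67, Cdc20, Ube2c, Aurka and Aspm together gave at least 80 of every 100000 UMIs. Members also had no UMI of Neurog3 and at most 1 of Sox3, both genes of the progenitor state. Cells with over 1000 detected genes and under 20% mitochondrial UMIs were considered, which was 7493 of the 9229 cells in the files, and 627 of them met the rule. The library CTRL 1 held 85 of these members, CTRL 2 held 26, BU 1 held 365 and BU 2 held 151. A further 1167 cells met every condition except the mitotic one and are called the other Gfra1+ cells below.

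The cells came from C57BL/6J mice of 6 to 8 weeks, either untreated (CTRL) or at day 10 (D10) after 1 dose of busulfan (BU, 10 mg/kg), a DNA alkylating agent that kills undifferentiated and differentiating spermatogonia. All libraries were made from cells sorted as E-cadherin+ CD49f+ c-KIT-, with 3 mice pooled in each library, and no genetic alteration was used. The libraries came from 2 experiments, with CTRL and BU once in each. With n = 2 libraries per group, p-values measure the spread between libraries. Those of a group differ in their pool of mice, their experiment and, by the labels, the droplet kit. In the labels, experiment 1 used version 2 of the droplet kit and experiment 2 version 3.1, whereas the study's methods name version 2 alone.

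GFRA1 is the receptor subunit that binds glial cell line-derived neurotrophic factor (GDNF) from Sertoli cells, and with the kinase RET it carries the signal that maintains spermatogonial stem cells (SSCs). Cells that express it make up most of the stem cell pool in the undisturbed testis, where they divide to renew themselves or to form progenitors. In mitosis, TOP2A untangles the DNA strands, AURKA and ASPM organise the spindle poles, and CDC20 and UBE2C act with the anaphase-promoting complex that starts the separation of the chromosomes, while MKI67 coats the mitotic chromosomes.

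The depth behind these cells differed between the experiments. The libraries held 26802228 UMIs (CTRL 1), 39904588 (CTRL 2), 21136369 (BU 1) and 53579969 (BU 2). The members alone summed to 839295 UMIs (CTRL 1), 796614 (CTRL 2), 4328200 (BU 1) and 7809300 (BU 2), so CTRL levels rest on far fewer transcripts than BU levels. On the CPM scale used here (a gene's count scaled to a fixed total of UMIs), a count of 0 allows a level of up to 3.57 in CTRL 1 and 3.59 in CTRL 2, but 0.689 in BU 1 and 0.406 in BU 2. CTRL 2 and BU 2 shared 677 cell barcodes in the files, of which 70 were among the cells kept, and for each of those 70 one copy held between 1.21% and 1.84% of the other's UMIs. These shallow copies included 2 of the 26 members of CTRL 2. CTRL 1 and BU 1 shared 11 barcodes (7 among the cells kept), and CTRL 2 and BU 1 shared 1.

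The members were chosen by the values of Gfra1, the mitotic genes, Sox3 and Neurog3, which are given as a description, with no test. In these and all later lists of 4 values the order is CTRL 1, CTRL 2, BU 1 and BU 2, and levels are CPM after TMM scaling over the summed members of a library. Gfra1 (chromosome 19, 58235604 to 58455909 on GRCm38) stood at 142, 146, 162 and 140 CPM, and at 197, 173, 210 and 158 in the other Gfra1+ cells. Top2a reached 392, 760, 635 and 574 CPM, against 75.9, 62.1, 142 and 112 in the other Gfra1+ cells. Mki67 had the widest range of the mitotic rule genes between libraries, at 109, 588, 292 and 384 CPM. All 4 markers named for these cells, Gfra1, Top2a, Ube2c and Cdc20, were present in all 4 libraries, with Cdc20 at 470, 258, 337 and 318 and Ube2c at 398, 348, 281 and 480. Aurka stood at 127, 55.0, 104 and 96.9, and Aspm at 32.1, 108, 114 and 110. Sox3, which the rule limits to 1 UMI a cell, was at 29.8, 10.8, 8.26 and 6.64 CPM, and Neurog3 was at 0 by the rule.

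The promoters of 3 of the mitotic genes are shown because genes of late cell cycle stages are known for short elements close to the start, the CHR element (TTTGAA, with TTCGAA as a variant), which the MuvB complex binds, and CCAAT, which NF-Y binds. All 6 mitotic rule genes matched RefSeq promoters of GRCm38.p6, each taken as a window of 300 bases, 250 before the start and 50 after it. Each line gives the 250 bases before the start, 5′ to 3′ on the strand of the gene, with every match in capitals, so that ATTGG and TTCAAA are CCAAT and TTTGAA on the opposite strand. Cdc20 lies at chr4:118437344-118437593 (minus strand), Ube2c at chr2:164769679-164769928 (plus strand) and Top2a at chr11:99024190-99024439 (minus strand).
Cdc20: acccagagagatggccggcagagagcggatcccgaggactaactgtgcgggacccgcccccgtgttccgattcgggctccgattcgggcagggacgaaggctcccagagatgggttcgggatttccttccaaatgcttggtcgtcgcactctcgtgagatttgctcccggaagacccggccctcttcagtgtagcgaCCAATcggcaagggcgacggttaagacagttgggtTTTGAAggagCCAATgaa
Ube2c: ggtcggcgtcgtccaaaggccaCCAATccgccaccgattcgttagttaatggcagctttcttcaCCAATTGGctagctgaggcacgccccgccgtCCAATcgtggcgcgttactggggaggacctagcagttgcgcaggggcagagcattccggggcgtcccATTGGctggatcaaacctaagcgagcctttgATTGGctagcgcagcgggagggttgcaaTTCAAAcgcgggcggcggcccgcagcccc
Top2a: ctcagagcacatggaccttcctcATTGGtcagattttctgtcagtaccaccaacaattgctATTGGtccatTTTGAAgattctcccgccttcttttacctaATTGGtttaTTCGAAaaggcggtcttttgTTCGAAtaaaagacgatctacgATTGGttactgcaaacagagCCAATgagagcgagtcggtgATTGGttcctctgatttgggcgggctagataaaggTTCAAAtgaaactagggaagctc
All 6 windows held both elements on at least 1 strand. In Aurka and Aspm the TTTGAA lay after the start, at positions 32 and 6 counted from it. In Ube2c a CCAAT on each strand overlaps within the letters CCAATTGG. Among 32851 promoters of the same length, 17.9% held TTTGAA, 1.56% TTCGAA, 37.4% CCAAT, and 7.52% either CHR form together with CCAAT. These matches are letters in a window and were not tested for binding.

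The mitotic threshold cuts a continuous distribution rather than separating groups of cells. The highest sums outside it were 78.7, 77.0, 79.7 and 79.7 UMIs per 100000, and the lowest inside it were 80.9, 102, 80.1 and 80.4. Between 60 and 80 there were 34, 6, 78 and 24 Gfra1+ cells, and between 80 and 100 there were 27, 0, 57 and 22. Over all Gfra1+ cells the median sum was 31.9 and 24.8 for the CTRL libraries and 70.2 and 47.1 for the BU libraries, and the upper quartile was 59.4, 60.6, 143 and 141. Both BU libraries thus had more of their Gfra1+ cells at high sums, as the distributions by library show. The Gfra1 condition depends on depth, since 1 UMI was enough in 58 members of CTRL 1 (68.2%) and 165 of BU 1 (45.2%), but in 3 of CTRL 2 (11.5%) and 3 of BU 2 (1.99%). The limits on Neurog3 and Sox3 are raw counts and depend on depth too. Without them, 103, 53, 386 and 227 cells met the other conditions.

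**Figure D1:**
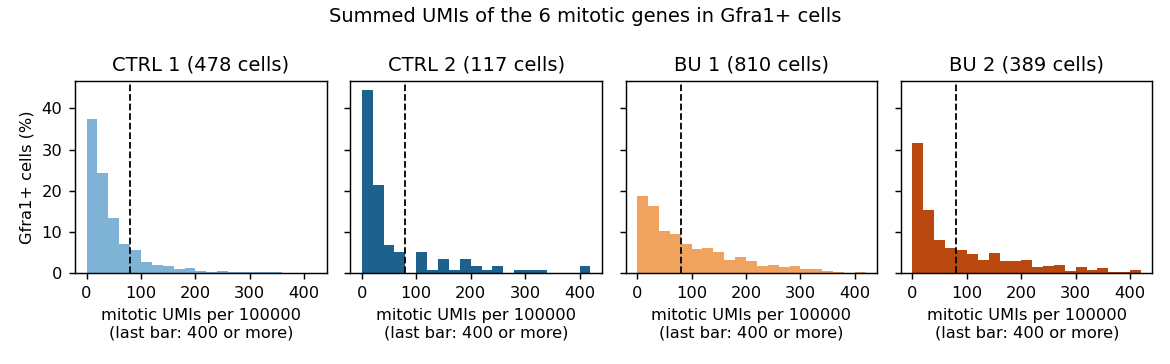
Distribution of the summed UMIs of Top2a, Mki67, Cdc20, Ube2c, Aurka and Aspm per 100000 UMIs (x axis, bins of 20, with the last bar holding all cells at 400 or more) over the Gfra1+ cells of each library (y axis, percent of cells). Cells right of the dashed line at 80 are members, and both BU panels hold more of their cells there than both CTRL panels.

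Cycling Gfra1+ cells made up a larger share of the sorted cells in both BU libraries than in both CTRL libraries. Of the cells kept in CTRL 1 they were 2.74% (2.20 to 3.38%, an exact binomial interval at 95% for counting error alone), and of those in CTRL 2 they were 2.32% (1.52 to 3.38%). BU 1 had 18.2% (16.5 to 19.9%) and BU 2 had 11.9% (10.2 to 13.9%). CTRL averaged 2.53% ± 0.297 and BU 15.1% ± 4.41 (SD, n = 2), and the gap of 12.5 points exceeded both spreads. At a mitotic threshold of 160 the gap was 6.27 points. Within experiment 1 the difference was 15.4 points and within experiment 2 it was 9.62. Without the conditions on Neurog3 and Sox3 these were 15.9 and 13.2 points. The rule's own thresholds define the members, and with 6 assignments of the 4 libraries a two-sided exact permutation test cannot go below p = 0.33. The shares are therefore given as a description, with no test. A share of sorted cells cannot tell more cycling Gfra1+ cells from fewer cells of other kinds.

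Within the Gfra1+ cells themselves the cycling share was also higher in BU. It was 17.8% of 478 cells in CTRL 1 (exact 95% interval 14.5 to 21.5%) and 22.2% of 117 in CTRL 2 (15.1 to 30.8%), against 45.1% of 810 in BU 1 (41.6 to 48.6%) and 38.8% of 389 in BU 2 (33.9 to 43.9%). The means of 20.002% ± 3.14 and 41.9% ± 4.42 (SD, n = 2) differed by 21.9 points, with 27.3 within experiment 1 and 16.6 within experiment 2. This difference too is given with no test, since the mitotic threshold makes the share. With all cells thinned to 5000 UMIs before the rule was applied, the difference was 22.2 points. At a mitotic threshold of 160 it was 11.5 points, since fewer cells pass in every library.

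**Figure D2:**
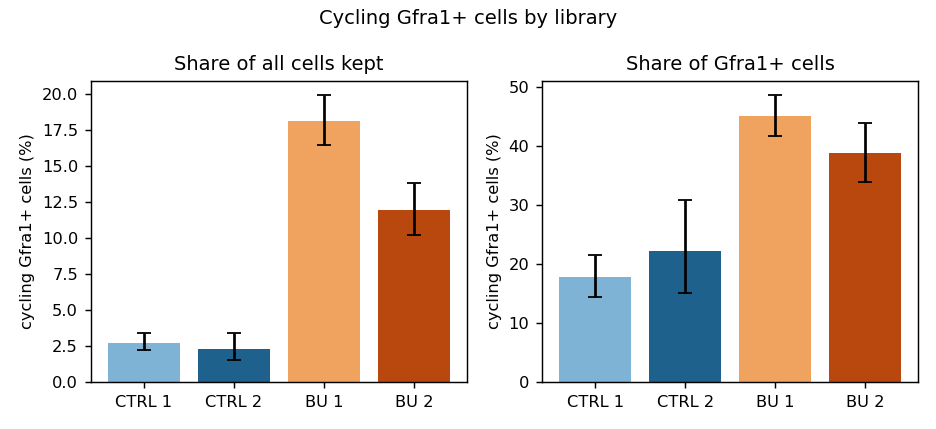
Share of cycling Gfra1+ cells (y axis, percent) among all cells kept (left) and among Gfra1+ cells (right) in the 4 libraries, with exact 95% binomial intervals as bars. Both BU bars stand above both CTRL bars in each panel, at 11.9% and 18.2% against 2.32% and 2.74% on the left.

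High mitotic sums were not particular to Gfra1+ cells in BU. Among cells at or below the Gfra1 threshold, with no condition on Neurog3 or Sox3, the share over the mitotic threshold was 10.5% and 13.1% in the CTRL libraries and 46.5% and 32.9% in the BU libraries. Above the Gfra1 threshold, under the same open conditions, it was 17.6%, 24.8%, 44.6% and 43.0%. The gap between the Gfra1 classes was therefore 7.15 and 11.6 points in CTRL, and -1.92 and 10.1 in BU, a mean of 6.74 points with an SD of 6.07 (n = 4). The rule's own thresholds make these classes, so the gap is given with no test.

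Cell cycle sums of the members varied between libraries, histone genes more than the others. The median sum per cell over 62 genes of S phase and replication was 636, 735, 801 and 630 UMIs per 100000, and that over 59 genes of G2 and mitosis was 1097, 1223, 1136 and 1365. The median mitotic sum, which the rule held at 80 or more, was 128, 183, 154 and 164. Histone genes, whose transcripts build up in S phase, had median sums of 12.7, 139, 53.2 and 50.9, so that the CTRL libraries lay on either side of both BU libraries. Hist1h1a, which encodes a linker histone, was at 15.5, 328, 110.2 and 142 CPM, and Hist1h1b at 3.57, 128, 66.3 and 64.9, with CTRL 1 lowest and CTRL 2 highest, as for Mki67. The CTRL and BU libraries overlapped in each of these sums. The mitochondrial share of UMIs had medians of 6.66%, 4.94%, 6.25% and 6.01%. Doublet calling marked 5 members, all in BU 1. Members held more UMIs than the other Gfra1+ cells of their library, with medians of 10054 against 6639, 30220 against 23187, 11691 against 9202 and 47364 against 28649, a ratio of 1.51, 1.30, 1.27 and 1.65. After the rule was applied to cells thinned to the same depth, the ratios of their full depth were 1.42, 1.22, 1.28 and 1.61.

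Each list of somatic markers summed to at most 62.5 CPM in the members, and each list of markers of later germ cells to 203 CPM or more. The 11 Sertoli cell markers summed to 46.4, 31.1, 49.4 and 62.5 CPM, led by Clu. Of 7 Leydig cell markers 4 were at 0, Insl3 and Lhcgr among them, and of 10 macrophage markers 4 were at 0, among them Adgre1 and Lyz2, with sums of 7.14, 10.8, 23.6 and 18.3 CPM. The 5 red blood cell markers summed to at most 3.57 CPM, and the 6 endothelial markers to 60.7, 62.2, 50.7 and 51.6, led by Egfl7. The 6 markers of differentiating spermatogonia, led by Stra8, summed to 234, 219, 266 and 203 CPM. Spermatid markers, led by Prm2 at 386, 118, 174 and 171 CPM, summed to 831, 415, 441 and 573, and 20 members held over 300 spermatid UMIs per 100000. Spermatocyte markers, led by Sycp1, summed to 713, 860, 736 and 917 CPM. The part of this RNA in the results was not tested, and counts are also given without the cells that carry it.

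The other Gfra1+ cells were set beside the members within each library, as a description, because the mitotic genes chose both classes. The test across all genes (edgeR's quasi-likelihood test with the library as a block) put 2396 of 11546 genes past an adjusted p of 0.05, 20.8%, and nothing is read from that count, since it follows the rule's own contrast. All 59 genes of G2 and mitosis were higher in the members in all 4 libraries, against 20.9% of all genes, with a median log2 fold of 1.51. Prc1, which bundles the microtubules of the central spindle, stood at 160, 372, 194 and 318 CPM in members and 30.8, 32.4, 39.7 and 54.6 in the other cells once cells with somatic or spermatid RNA were left out. Nusap1, Plk1 and Tpx2, further spindle genes, had log2 folds of 2.60, 2.52 and 2.22 in the same cells. Among the genes outside the cell cycle lists, Arhgef39, Prr11, Fam83d and Depdc1a had the largest rises in these cells, and Fam83d was at 100.9, 43.9, 58.1 and 73.3 CPM in members and 16.0, 9.19, 12.7 and 14.2 in the others. Over all cells, 25 of the 62 genes of S phase and replication were higher in all 4 libraries and 1 was lower, with a median of 0.26. With cells rich in somatic or spermatid RNA left out, 19 were higher and 2 lower, with a median of 0.13, beside 19.9% and 19.2% of all genes.

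The 10 largest falls from the other Gfra1+ cells to the members outside the cell cycle lists included Rarres2, Lcn2, C3, Cd74, Ifitm3 and Rspo1. Rarres2 was at 0, 0, 0 and 0.135 CPM in members and at 4.22, 59.9, 9.20 and 70.1 in the other cells, and Lcn2, Cd74, Ifitm3 and Rspo1 were likewise higher in the other cells of all 4 libraries, most of all in experiment 2. Sertoli markers summed to 154, 548, 100 and 505 CPM in the other Gfra1+ cells, and 60 of the 1167 other cells but 2 of the 627 members held over 100 somatic marker UMIs per 100000. These cells and those with over 300 spermatid UMIs were therefore left out for the comparisons of the classes in the next paragraphs, up to those of BU with CTRL, a choice made after the values were seen.

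Without those cells, genes of the stem cell state were set beside all genes. Of 25 SSC genes, 13 (52%) were lower in the members in all 4 libraries, beside 19.2% of 11192 genes. The 3 that were higher (12%) were no more than the 19.9% of all genes. Bcl6b, a GDNF-responsive transcriptional repressor, was at 9.42, 13.1, 32.1 and 27.4 CPM in members and 30.4, 37.8, 73.5 and 87.3 in the other cells, a log2 fold of -1.48. Each library's members were below its other cells, and the BU libraries were above the CTRL libraries within each class. Ret, the kinase partner of GFRA1, stood at 51.1, 52.2, 48.8 and 51.5 against 93.9, 90.8, 62.9 and 68.1 CPM. Egr2, Foxc2 and Zbtb16, which encode transcription factors, were lower as well (log2 folds of -0.62, -0.39 and -0.37), as was Lhx1 at -0.30. The 3 higher genes were Epcam, Nefm and Pou3f1, with log2 folds of 0.62, 0.73 and 0.29. Epcam, an adhesion molecule, was at 250, 376, 408 and 476 CPM in members and 139, 196, 275 and 374 in the others.

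Of 22 genes of G1 cyclins, kinases and inhibitors, 7 were higher in the members in all 4 libraries and 3 were lower, beside 19.9% and 19.2% of all genes. The 7 were Cdkn1a, Cdkn1b, Cdkn2a, Cdkn2b, Cdkn2c, Ccnd1 and Rbl1, and the 3 were Ccnd2, Ccnd3 and E2f5. With all cells kept the counts were 6 and 1, since Ccnd2 and E2f5 were then mixed and Cdkn2c was lower in the members of 3 libraries, at 4.76, 13.1, 7.35 and 5.42 CPM against 6.44, 23.5, 4.79 and 18.0. Cdkn1a, which encodes the p53-inducible inhibitor p21, was at 51.1, 71.2, 138 and 180 CPM in members and 25.5, 9.73, 77.5 and 77.9 in the other cells, a log2 fold of 1.17. Cdkn1b, which encodes the inhibitor p27, stood at 8.07, 52.2, 22.7 and 28.8 against 4.18, 17.8, 9.16 and 14.5 CPM. The inhibitor genes Cdkn2a, Cdkn2b and Cdkn2c had log2 folds of 0.28, 0.59 and 0.83 without the cells left out. Plk2 and Pmaip1, both known targets of p53, had log2 folds of 1.64 and 0.44, while Xpc, a DNA damage sensor and also a p53 target, had one of -0.53. Of 21 p53 targets, 6 were higher in all 4 libraries (28.6%) and 2 lower (9.52%), beside 19.9% and 19.2% of all genes, with a median of 0.16. Of 26 genes of chromatin and DNA methylation, 15 were higher in all 4 libraries and 1 was lower, beside the same 19.9% and 19.2%. Ezh2, the methyltransferase of Polycomb repressive complex 2, stood at 64.6, 106, 98.8 and 101 CPM against 32.7, 30.8, 59.4 and 69.1. Dnmt1, Suz12, Hells and Smarca5 had log2 folds of 0.57, 0.42, 0.41 and 0.38. The largest falls outside the cell cycle lists were Syn2, at 9.42, 4.75, 11.7 and 10.1 CPM against 75.6, 56.8, 40.6 and 36.6, and Klf2, a transcription factor gene, with a log2 fold of -1.66.

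**Figure D3:**
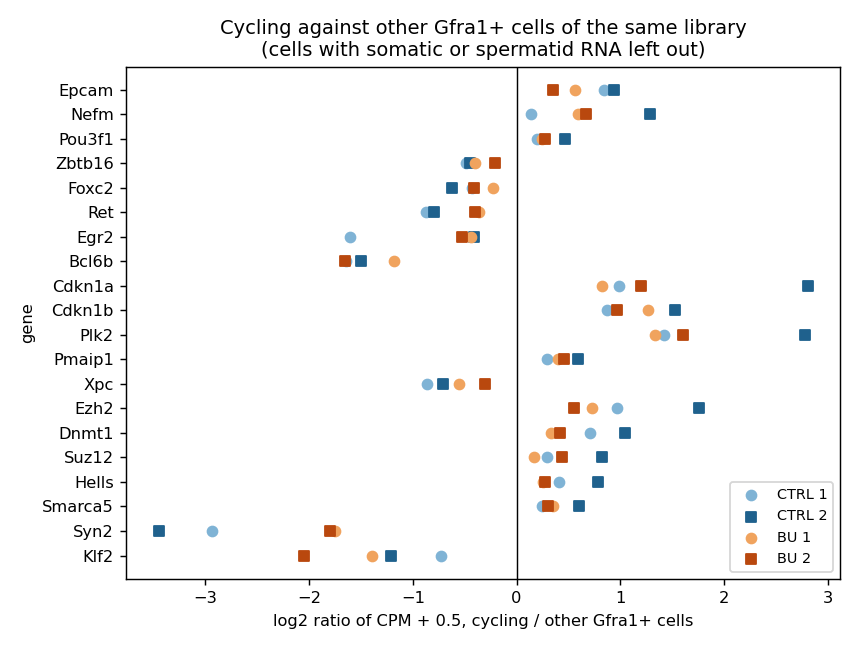
Log2 ratio of CPM (0.5 added) in cycling over other Gfra1+ cells of the same library (x axis) for 20 genes picked after their values were seen (y axis), 1 point a library, with cells rich in somatic or spermatid RNA left out. Cdkn1a, Cdkn1b, Plk2 and Ezh2 lie right of 0 and Bcl6b, Ret, Syn2 and Klf2 left of 0 in all 4 libraries.

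BU was compared with CTRL within the members to ask how cycling Gfra1+ cells of the regenerating testis differ from those of the undisturbed one. No gene of 10756 tested passed an adjusted p of 0.05 (0%) in edgeR's quasi-likelihood test with condition as the only term and Benjamini-Hochberg adjustment, DESeq2 called 0 as well, and 224 genes had an unadjusted p under 0.05. The first principal component of the 4 libraries (67.6% of the variance) separated the experiments and the second (20.9%) the conditions. Once the experiment entered as a replicate block, 16 genes passed (0.149%), 9 higher in BU (0.0837% of those tested) and 7 lower (0.0651%), and 504 had an unadjusted p under 0.05. That fit leaves 1 residual degree of freedom, and its 16 calls were all lost with library size in place of TMM scaling, with DESeq2, and with the rule applied to thinned cells. Fold changes of the 16 kept their direction in all 3, apart from Dusp26, which had no value in thinned cells. The filter on low counts kept Gcdh through BU alone and Dusp26 through CTRL alone, which fixed the direction of both. Plaur, Cdkn1a and Upp1 had log2 fold changes of 2.58, 1.39 and -2.68 with the block, 2.49, 1.31 and -2.73 without TMM, 2.69, 1.37 and -2.62 in DESeq2, and 2.23, 1.55 and -2.26 in thinned cells. Larger moves were those of Igf2, from 2.15 to 1.00 in DESeq2 and to 2.84 in thinned cells, and of Gcdh, Crip2 and Arl8a in thinned cells, from 3.57, -1.48 and -1.88 to 1.90, -0.84 and -0.98. The block called 13 genes (0.121%) without the shallow copies of shared barcodes and 17 (0.160%) without cells rich in somatic or spermatid RNA. Lhx1 was lost in both, and Igf2 and Dusp26 in the first. Adjusted p-values for BU against CTRL below are from edgeR's quasi-likelihood test with this block, and a level that did not pass it is given as a value only. Medians over gene lists for BU against CTRL are from the fit without the block unless stated.

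The 9 genes higher in BU with the block were Plaur, Cdkn1a, Ccng1, Wif1, S100a6, Lhx1, Rhox2a, Gcdh and Igf2. Plaur (chromosome 7, 24462484 to 24475968), which encodes the urokinase plasminogen activator receptor, was at 1.19 and 5.98 CPM in CTRL 1 and CTRL 2 and at 18.1 and 24.1 in BU 1 and BU 2. The CTRL values rest on 1 and 5 UMIs and the BU values on 79 and 178, and the groups did not overlap (log2 fold change 2.58, standard error 0.58, adjusted p = 0.0191 in edgeR with the block). Cdkn1a (chromosome 17, 29090976 to 29100727) stood at 49.99 and 71.7 CPM in CTRL and 137 and 180 in BU. Both BU libraries lay above both CTRL libraries, with ratios of 2.73 in experiment 1 and 2.51 in experiment 2 (log2 fold change 1.39, standard error 0.32, adjusted p = 0.0199 in edgeR with the block). Ccng1 (chromosome 11, 40748552 to 40755311), which encodes cyclin G1 and is a p53 target, was at 40.5 and 25.1 CPM in CTRL and 76.2 and 112 in BU, again without overlap (log2 fold change 1.51, adjusted p = 0.0199 in edgeR with the block).

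Wif1 (chromosome 10, 121033960 to 121100650) encodes a secreted inhibitor of WNT proteins and was at 4.76 and 2.39 CPM in CTRL, from 4 and 2 UMIs, and at 25.5 and 16.0 in BU. The groups were apart by a log2 fold change of 2.53 (standard error 0.58, adjusted p = 0.0199 in edgeR with the block). S100a6 (chromosome 3, 90612882 to 90624181), which encodes a calcium-binding protein, stood at 20.2 and 47.8 CPM in CTRL and 61.7 and 122 in BU (log2 fold change 1.46, adjusted p = 0.0313 in edgeR with the block). Lhx1 (chromosome 11, 84518284 to 84525535), a homeobox gene that GDNF induces in SSCs, was at 22.6 and 112 CPM in CTRL and 120 and 165 in BU. CTRL 2 and BU 1 nearly met, and the difference was mainly within experiment 1 (ratio 5.30, against 1.47 in experiment 2, adjusted p = 0.0384 in edgeR with the block). Its adjusted p in the same edgeR fit was 0.0571 without the shallow copies of shared barcodes and 0.0611 without cells rich in somatic or spermatid RNA. Rhox2a (chromosome X, 37244976 to 37249686), a reproductive homeobox gene with near-identical neighbours that could share its reads, was at 22.6, 15.5, 73.2 and 52.0 CPM (adjusted p = 0.0191 in edgeR with the block).

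The 7 genes lower in BU with the block were Upp1, Oasl2, Gbp3, Arl8a, Crip2, Gm12216 and Dusp26. Upp1 (chromosome 11, 9118103 to 9136170), which encodes uridine phosphorylase 1 and is high in progenitors, was at 40.5 and 8.37 CPM in CTRL and 4.36 and 2.30 in BU. The groups did not overlap, and the log2 fold change was -2.68 (standard error 0.50, adjusted p = 0.000802 in edgeR with the block), the smallest adjusted p of all genes tested. Oasl2 (chromosome 5, 114896936 to 114912234), an interferon-stimulated gene of the oligoadenylate synthetase family, stood at 33.3 and 13.1 CPM in CTRL and 6.43 and 4.34 in BU (log2 fold change -2.03, standard error 0.46, adjusted p = 0.0191 in edgeR with the block). Gbp3 (chromosome 3, 142560026 to 142573209), which encodes a guanylate-binding protein of an interferon-induced family with close paralogs, was at 24.99, 17.9, 4.13 and 7.59 CPM. Arl8a, which encodes a small GTPase of lysosomes, was at 28.6, 15.5, 4.59 and 7.05, Crip2, which encodes a LIM domain protein, at 83.3, 35.9, 20.9 and 19.0, and the gene model Gm12216 at 38.1, 20.3, 8.26 and 7.45 CPM. In each of these 6 genes both BU libraries lay below both CTRL libraries.

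The remaining 3 calls did not meet the rule for named genes. Igf2, the growth factor gene, was at 10.7 and 7.17 CPM in CTRL but at 123 in BU 1 and 2.44 in BU 2, so the experiments went in opposite directions and the groups overlapped. Gcdh, a mitochondrial dehydrogenase gene that overlaps Syce2 on the opposite strand, had 1 UMI in each CTRL library and 45 and 141 in BU, a ratio of 13.3 with an exact counting interval of 3.63 to 111. Dusp26, a phosphatase gene, was at 7.14, 5.98, 0.459 and 0.813 CPM, from 6, 5, 2 and 6 UMIs. The low count filter kept Gcdh through its BU levels alone and Dusp26 through its CTRL levels alone. That fixed their directions, so both calls are given as a description only.

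**Figure D4:**
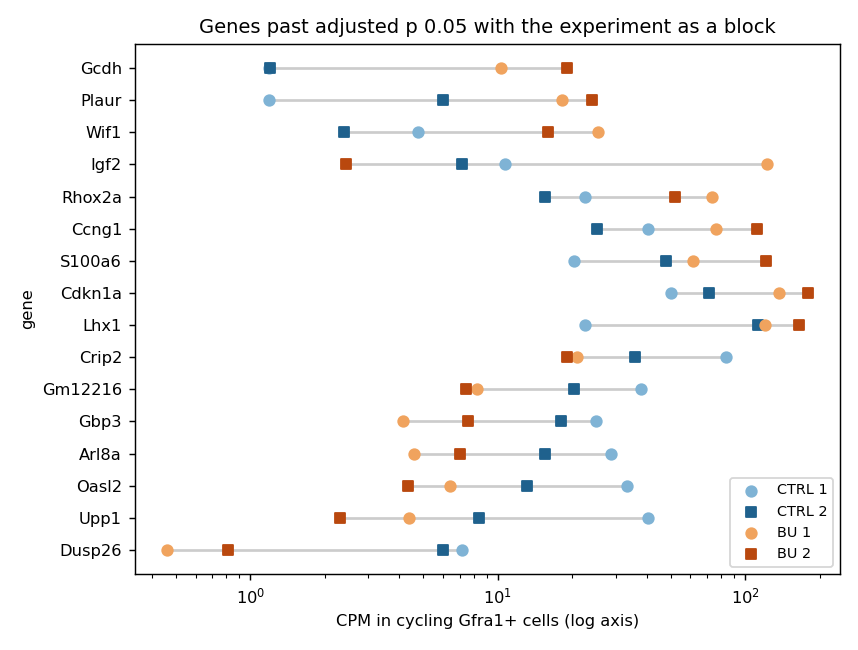
Levels (x axis, CPM after TMM scaling, log axis) in the members of each library for the 16 genes past an adjusted p of 0.05 in edgeR with the experiment as a block (y axis, ordered by fold change), 1 point a library. BU points lie right of both CTRL points for 8 of the 9 upper genes, Igf2 being the exception, and left of them for all 7 lower genes. For Gcdh and Dusp26 the low count filter fixed the side.

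Of 26 listed p53 targets, 22 were abundant enough to test, and 2 (Cdkn1a and Ccng1) passed with the block, beside 0.149% of all genes. In 13 of the 22 both BU libraries lay above both CTRL libraries, where 13.4% of all genes did, and in 1 (Sesn1) below, where 12.4% did. The median log2 fold change was 0.42, beside 0.00 over all genes tested. Pmaip1, which encodes the proapoptotic protein NOXA, was at 96.4, 121, 224 and 175 CPM and Bbc3, which encodes PUMA, at 2.38, 3.59, 5.74 and 12.3. The low count filter kept Bbc3 through its BU levels alone, which fixed its place among the 13, so that count is given as a description only. Phlda3 stood at 13.1, 7.17, 17.9 and 33.7 and Btg2, an antiproliferative gene, at 39.3, 59.8, 87.9 and 87.8 CPM. None of these 4 passed (adjusted p between 0.468 and 0.850 in edgeR with the block). Mdm2, the feedback inhibitor of p53, was at 136, 126, 131 and 119 CPM, and Sesn1 at 24.99, 28.7, 14.2 and 14.6. Of the 4 listed genes under the filter, Eda2r had 0, 0, 10 and 30 UMIs, Perp 0, 0, 8 and 14, Dcxr 1, 0, 9 and 15, and Fas 0, 0, 1 and 2. A count of 0 allows up to 3.57 CPM in CTRL 1 and 3.59 in CTRL 2, so these counts are not read as a difference.

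Of 30 listed interferon-stimulated genes, 15 could be tested and 1 (Oasl2) passed with the block, beside 0.149% of all genes. In 6 of the 15 both BU libraries lay below both CTRL libraries (12.4% of all genes), in 0 above (13.4%), and the other 9 overlapped. Among the 6, Ifi35 and Irf9 (4.76, 4.78, 3.21 and 3.52 CPM) were kept by the low count filter through their CTRL levels alone. That fixed their direction, so the count is given as a description only. The median log2 fold change was -0.49. Ifi35 was at 9.52, 4.78, 2.07 and 2.17 CPM and Irf1, a transcription factor of the interferon response, at 33.3, 52.6, 28.7 and 28.9, neither of them past the test. The other 15 were too low to test, and several, such as Irf7 and Ifit1, were at 0 in all 4 libraries. The whole list of 30 summed to 287, 294, 208 and 198 CPM in members and 325, 487, 239 and 339 in the other Gfra1+ cells. In the members, marker sums of macrophages (7.14, 10.8, 23.6 and 18.3 CPM) and Sertoli cells (46.4, 31.1, 49.4 and 62.5) were higher in BU. Those of endothelial cells (60.7, 62.2, 50.7 and 51.6) and Leydig cells (4.76, 4.78, 1.61 and 2.30) were lower. A somatic source of the interferon transcripts was not tested.

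**Figure D5:**
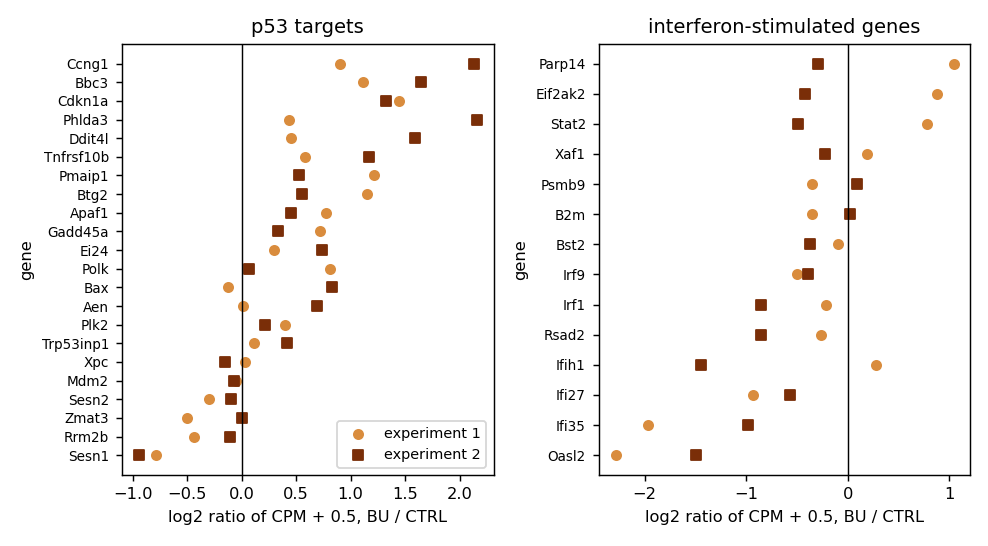
Log2 ratio of BU over CTRL (x axis, CPM with 0.5 added) within each experiment for tested p53 targets (left) and interferon-stimulated genes (right), 1 circle and 1 square a gene (y axis). Most p53 targets lie right of 0 in both experiments, with Cdkn1a and Ccng1 among the highest, and Oasl2 and Ifi35 have the lowest mean ratios on the right.

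Of 21 tested genes of the GDNF and fibroblast growth factor (FGF) receptors and their responses, 1 (Lhx1) passed with the block, beside 0.149% of all genes. In 8 both BU libraries lay above both CTRL libraries (13.4% of all genes) and in 1 (Fgfr1) below (12.4%). The median log2 fold change was 0.41 without the block and 0.36 with it. Bcl6b was at 13.1, 13.1, 32.4 and 27.5 CPM, Spry1, a feedback inhibitor of the pathway, at 16.7, 29.9, 37.2 and 40.2, and Egr1 at 52.4, 92.0, 102 and 112, none of them past the test. The receptor Ret stood at 48.8, 52.6, 47.7 and 51.6 CPM and the targets Etv5 and Etv4 at 70.2, 53.8, 75.1 and 56.9 and at 71.4, 45.4, 68.9 and 64.1, so these 3 overlapped between groups. Over 24 tested SSC genes the median was 0.22, with 6 apart upward and 2 downward, beside 13.4% and 12.4% of all genes. Pdx1, a homeobox gene of SSCs in the undisturbed testis, was at 15.5 and 16.7 CPM in CTRL and 7.35 and 10.0 in BU, and Utf1 at 8.33, 5.98, 4.82 and 2.17, neither past the test. Id4, Zbtb16 and Nefm overlapped between groups.

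Progenitor and differentiation genes had a median log2 fold change of -0.30 over 16 tested (-0.25 with the block). Upp1 was the single call of the block, beside 0.149% of all genes. The groups were apart downward in 6 and upward in 3, beside 12.4% and 13.4% of all genes. Among the 6, Lin28a was at 26.2, 37.1, 19.7 and 20.9 CPM and Rarg, the retinoic acid receptor of progenitors, at 7.14, 4.78, 4.59 and 2.17. Among the 3, Kit, the receptor of differentiating spermatogonia that the sort selected against, was at 0, 4.78, 7.12 and 15.0 CPM, from 0, 4, 31 and 111 UMIs, and Ddit4 at 7.14, 1.20, 12.4 and 14.9 (adjusted p = 0.369 and 0.468 in edgeR with the block). Ccnd2, the D-type cyclin, was at 855 and 648 CPM in CTRL and 1227 and 934 in BU, and did not pass. Sohlh1, at 250, 71.7, 125 and 70.7 CPM, and Stra8, at 105, 50.2, 81.3 and 48.2, differed more between experiments than between groups.

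No gene of the cell cycle lists other than Cdkn1a and Plaur passed the test between BU and CTRL members, all of which were chosen for a high mitotic sum. The 59 genes of G2 and mitosis had a median log2 fold change of 0.08 under that choice. The 62 of S phase and replication had one of 0.05, made up of 0.29 within experiment 1 and -0.22 within experiment 2, so the experiments went in opposite directions. In FOXM1, the transcription factor of mitotic genes, and the targets named for it in the study, the median was 0.14 over 11 genes, and Plaur was the only call. The study chose that list with the same contrast of A_undiff in view, so its direction is not independent evidence. Foxm1 was at 21.4, 16.7, 26.2 and 24.1 CPM, Ccnb1 at 602, 317, 498 and 448, Plk1 at 96.4, 64.6, 94.1 and 97.3, and Kif4 at 11.9, 58.6, 63.8 and 62.1. Inhibitors of cyclin-dependent kinases other than Cdkn1a did not pass, with Cdkn1b at 7.14, 52.6, 22.3 and 28.9 CPM and Cdkn1c at 84.5, 103, 68.6 and 59.5. Crosslink repair and checkpoint genes (37 tested), which act on the lesions that busulfan makes, had a median of 0.12 (0.18 with the block) and 0 calls. Chromatin genes (26 tested) had 0.11 (0.22 with the block) and 0. With 0.149% of all genes called, nothing is read from these counts of 0. The medians of these lists were 0.37 and 0.56 within experiment 1 but -0.22 and -0.12 within experiment 2. Growth genes of mTORC1 and IGF signalling (24 tested) had a median of 0.01, with Igf2 as the single call.

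Plaur belongs to a small list of plasminogen activator genes. Its ligand gene Plau was at 0, 0, 0 and 2 UMIs in the members, and the tissue activator Plat at 8.33, 8.37, 13.3 and 11.1 CPM. The integrin genes Itga6, which encodes CD49f of the sort, and Itgb1 were at 52.4, 38.3, 87.2 and 69.8 and at 76.2, 151, 161 and 161 CPM. Of the 10 genes listed 6 could be tested. In Plaur, Plat, Itga6 and Itgb1 both BU libraries lay above both CTRL libraries (13.4% of all genes), in 0 below, and only Plaur passed. The inhibitor gene Serpine2, at 14.3, 5.98, 10.1 and 17.2 CPM, overlapped between groups. Of 20 immediate early and stress genes 0 passed (0.149% of all genes did), with 8 apart upward and 3 downward, beside 13.4% and 12.4% of all genes. Jun, a subunit of the AP-1 transcription factor, was at 7.14, 7.17, 21.1 and 18.3 CPM.

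The same comparison in the other Gfra1+ cells gave 0 of 12234 genes without the block (0%) and 93 with it (0.760%), of which 9 were among the 16 of the members, 9.68% of the 93 and 56.2% of the 16. Both comparisons share their libraries. Plaur, S100a6, Cdkn1a and Ccng1 had block log2 fold changes of 3.57, 2.37, 2.07 and 1.64 there, against 2.58, 1.46, 1.39 and 1.51 in the members, and Upp1 -2.69 against -2.68. Wif1 stood at 0.93 there against 2.53 in the members, Rhox2a at 1.01 against 1.72, Crip2 at -0.35 against -1.48, and Arl8a at -0.58 against -1.88, none of these 4 past the test in the other cells (adjusted p from 0.0599 to 0.603 in edgeR with the block). The difference of the BU effect between the classes was itself tested, and 0 of 11546 genes passed (0%), with 448 at an unadjusted p under 0.05 in edgeR and 1 called by DESeq2 (Rpl22l1).

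With the cells rich in somatic or spermatid RNA left out, a choice made after the values were seen, that test of the difference called 44 of 11192 genes (0.393%), 35 lower and 9 higher. Of the 35, 5 were among the 62 tested genes of S phase and replication and 5 were histone genes, the latter with near-identical copies that could share reads. Among the 44 calls, 2 were of the 59 genes of G2 and mitosis. No share is given for the histone genes. Rrm2, the ribonucleotide reductase subunit of S phase, was at 45.7, 61.7, 94.96 and 64.1 CPM in members and 28.5, 16.2, 72.3 and 66.6 in the other Gfra1+ cells. For Rrm2 the members lay above the other cells in both CTRL libraries and in BU 1, by less in BU 1. They lay slightly below them in BU 2 (interaction -1.09 on the log2 scale, standard error 0.26). Cdc25a, the phosphatase that opens S phase, stood at 59.2, 89.0, 88.0 and 70.0 CPM in members and 30.4, 35.1, 84.6 and 63.7 in the others. Stra8, which responds to retinoic acid, stood at 108, 49.9, 82.0 and 48.2 against 51.3, 22.7, 80.6 and 46.2, and Sohlh2 at 63.2, 66.5, 77.7 and 58.6 against 32.7, 21.1, 87.4 and 54.1. In these 3 genes the other cells stood close to the members in both BU libraries and well below them in both CTRL libraries. Ddit4 went the other way, with 5.38, 1.19, 12.2 and 15.1 CPM in members and 36.9, 9.73, 18.1 and 15.2 in the other cells (interaction 2.58, adjusted p = 0.00499 in edgeR). These calls rest on the 26 CTRL 2 members among others, and the test over all cells called 0 genes. Without CTRL 2 it called 17 genes lower and 4 higher, and without BU 2 it called 17 higher and 0 lower. Each of those fits leaves 1 library in a group, which is assumed to vary like the other group, so their calls have no replicate check.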

How the data were processed

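The files are UMI counts for each gene and cell, deposited as filtered Cell Ranger matrices with no normalisation by the authors. The processing notes in the labels name GRCm39 and the paper mm10, and genes were matched by identifier (27514 listed in all libraries). Coordinates are from GENCODE M21 on GRCm38. The rule, the gene lists and the named genes were chosen with earlier results of these data known. Named genes are those past the threshold with a mean of at least 10 CPM and the same direction in both experiments, taken from the fit with the block because the fit without it called none, and, for the classes, the largest rises and falls outside the cell cycle lists.

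UMIs of the member cells were summed per library and fitted in edgeR 4.0.16 (R 4.3.3; quasi-likelihood test after filterByExpr and TMM), adjusted by Benjamini-Hochberg with a threshold of 0.05, leaving out the 9 rule genes. A gene could be kept by this low count filter through CTRL or BU alone, and counts of genes with the groups apart include such genes. The class comparison and the interaction had the library as a block. DESeq2 1.42.0 was an alternative. Scrublet, run in scanpy 1.11.5 under Python 3.11.15 at an expected 0.8% per 1000 cells, marked 152 cells as doublets (2.03%). Exact binomial intervals cover counting error only, and precision is limited by the 2 libraries per group. Log2 ratios within an experiment or library had 0.5 CPM added, and plain ratios did not. In the interferon and the plasminogen activator lists, 1 gene each enters the counts and sums but is not reported here by itself.

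The labels describe library construction jointly for the CTRL and the BU library of each number, and this pairs them. Over 10756 genes, CTRL 1 and BU 1 deviated together from the means of their groups (correlation 0.54). The replicate block lowered the common biological coefficient of variation from 0.311 to 0.206.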

Additional observations from a re-analysis of the deposited data

How the results depend on the processing

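With 2 libraries per group, the fit of BU against CTRL without a block called 0 genes under every alternative tried except no filter on low counts, which called 4 (Igf2, Gcdh, Upp1 and the pseudogene Olfr1369-ps1, named after their values were seen). The replicate block, which pairs the libraries by experiment, called 16. Together with the block, 13 were called without the shallow copies of shared barcodes (all 13 among the 16), 17 without cells rich in somatic or spermatid RNA (15 shared), 16 without doublets (16 shared), and 0 with library size scaling, thinned cells or DESeq2. These pairings with the block were chosen after seeing the data. For the other Gfra1+ cells the block took the count from 0 to 93. The count of genes between classes, 2396, was 140 without the replicate block, 1357 with DESeq2, 274 above a fold of 1.5 and 610 to 2181 when each library was left out, lowest without BU 2 (610) and 1586 without CTRL 1. The test of the difference of the BU effect went from 0 to 1 with DESeq2, 15 without the filter on low counts, 2 at a mitotic threshold of 160 (Hist1h2ae and Hist1h1a), 4 with no condition on Neurog3 and Sox3 (Lepr, Ddit4, Cdc25a and Hist1h1a) and 44 without cells rich in somatic or spermatid RNA, and lay between 0 and 21 when each library was left out. At the mitotic threshold of 160 the share differences were 6.27 points of all cells kept and 11.5 points of Gfra1+ cells, and leaving out each library gave 9.41 to 15.6 and 18.8 to 25.1 points. The log2 fold of Hist1h2aa between classes turned to -0.15 at that threshold. The causes of these changes were not tested. The CTRL sums hold the fewest UMIs, which limits what can be called at low levels.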
